A study of Homo sapiens with 4 samples.

Results

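The Wnt genes described here are the secreted Wnt ligands, their Frizzled, LRP5/6 and LGR receptors, the receptor-trimming ligases RNF43 and ZNRF3, the DKK, SFRP and WIF1 antagonists, the AXIN and NKD regulators and the TCF/LEF factors. They were chosen by gene symbol, not by any measured value, though earlier results of these data were known when the set was chosen. The symbols matched 53 of the 35979 in the tables, and rows of the same symbol were summed. Of the 53 genes, 39 had a mean of at least 20 normalized counts over the 4 libraries, the minimum used for every comparison.

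The libraries came from NCI-H1048, an established cell line from a human small cell lung cancer of the tuft cell-like subtype, and poly(A) RNA was sequenced. COLCA2 gRNA 1 and COLCA2 gRNA 2 are libraries of cells given different guide RNAs (gRNA) against COLCA2, a transcriptional co-activator of the transcription factor POU2F3, and carry the genotype label COLCA2 knockout. The POU2F3 group is 1 library labelled POU2F3 knockout, and the control is 1 library of cells labelled WT that received a non-targeting gRNA, called the control library below. The labels list no further treatment, and do not say whether the edited cells were pools or clones. Because the POU2F3 and control groups held 1 library each, differences between them have no replicate check. Every COLCA2 ratio also uses that 1 control library. An SD given below with n = 2 guides holds the spread between the guides and none of the control's.

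Wnt proteins are lipid-modified ligands that leave the cell with the carrier WLS and bind Frizzled receptors. With the co-receptors LRP5 or LRP6 they stabilise beta-catenin, which then acts with TCF/LEF factors on DNA, whereas ligands such as WNT5A act mainly through receptors that do not need beta-catenin. DKK proteins block LRP5/6, SFRP proteins and WIF1 bind the ligands themselves, and RNF43 and ZNRF3 remove Frizzled from the cell surface unless R-spondins engage an LGR receptor.

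Taken over all genes, the 4 libraries held between 21587741 and 29632382 reads assigned to genes. POU2F3 RNA stood at 14602 normalized counts in the control, at 3677 and 2351 with the COLCA2 guides and at 1449 with POU2F3 gRNA. COLCA2 RNA was 5585 in the control library, 3119 and 3541 with its own guides and 1393 with POU2F3 gRNA. Of 8 tuft cell markers, the targeted POU2F3 itself among them, 6 passed the minimum. All 6 fell at least 2-fold in both comparisons, against 2.02% of all genes with COLCA2 gRNA and 3.05% with POU2F3 gRNA. TRPM5 and PTGS1 were below the minimum in this line. The neuroendocrine markers NEUROD1 and CHGA were below it as well. INSM1, another neuroendocrine marker, was lower in both comparisons, at 118 normalized counts in the control against 23.8 and 24.7 with the COLCA2 guides and 35.3 with POU2F3 gRNA, and SYP was not called.

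A gene was called higher or lower with COLCA2 gRNA when both guides were at least 2-fold from the control library on the same side, and with POU2F3 gRNA when its library was. Each log2 ratio was taken of normalized counts with 1 added. With COLCA2 gRNA, 11 of the 39 Wnt genes (28.2%) were higher, against 5.79% of the 14940 genes tested. Another 2 (5.13%) were lower, against 2.02%. With POU2F3 gRNA, 14 (35.9%) were higher, against 6.73%, and 2 (5.13%) were lower, against 3.05%. Both comparisons use the same control library, so they are not independent of each other.

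The genes that were higher are not only those that the minimum admitted through the edited libraries. Of the 11 higher with COLCA2 gRNA, 9 (81.8%) also reached 20 in the control library, against 71.2% of all genes called higher. Of the 14 higher with POU2F3 gRNA, 12 (85.7%) did, against 72% of all genes called higher. In both comparisons the genes that did not were WNT10A and LGR6, each at 12.4 in the control library. The minimum admitted them through the edited libraries, where they were high. The median log2 ratio of the 39 genes was 0.345 with COLCA2 gRNA (mean of the guides; medians of 0.32 and 0.35 for the single guides) and 0.44 with POU2F3 gRNA, against -0.009 and -0.004 over all genes.

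edgeR's quasi-likelihood test on the recovered reads gave a second view, with all of its spread taken from the pair of COLCA2 guides, so that its p-values compare libraries. At an adjusted p under 0.05 it called 15 Wnt genes higher with COLCA2 gRNA, against 11.4% of all genes, and 3 lower, against 7.51%. For POU2F3 gRNA it called 16 higher, against 8.45%, and 1 lower, against 3.98%.

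**Figure D1:**
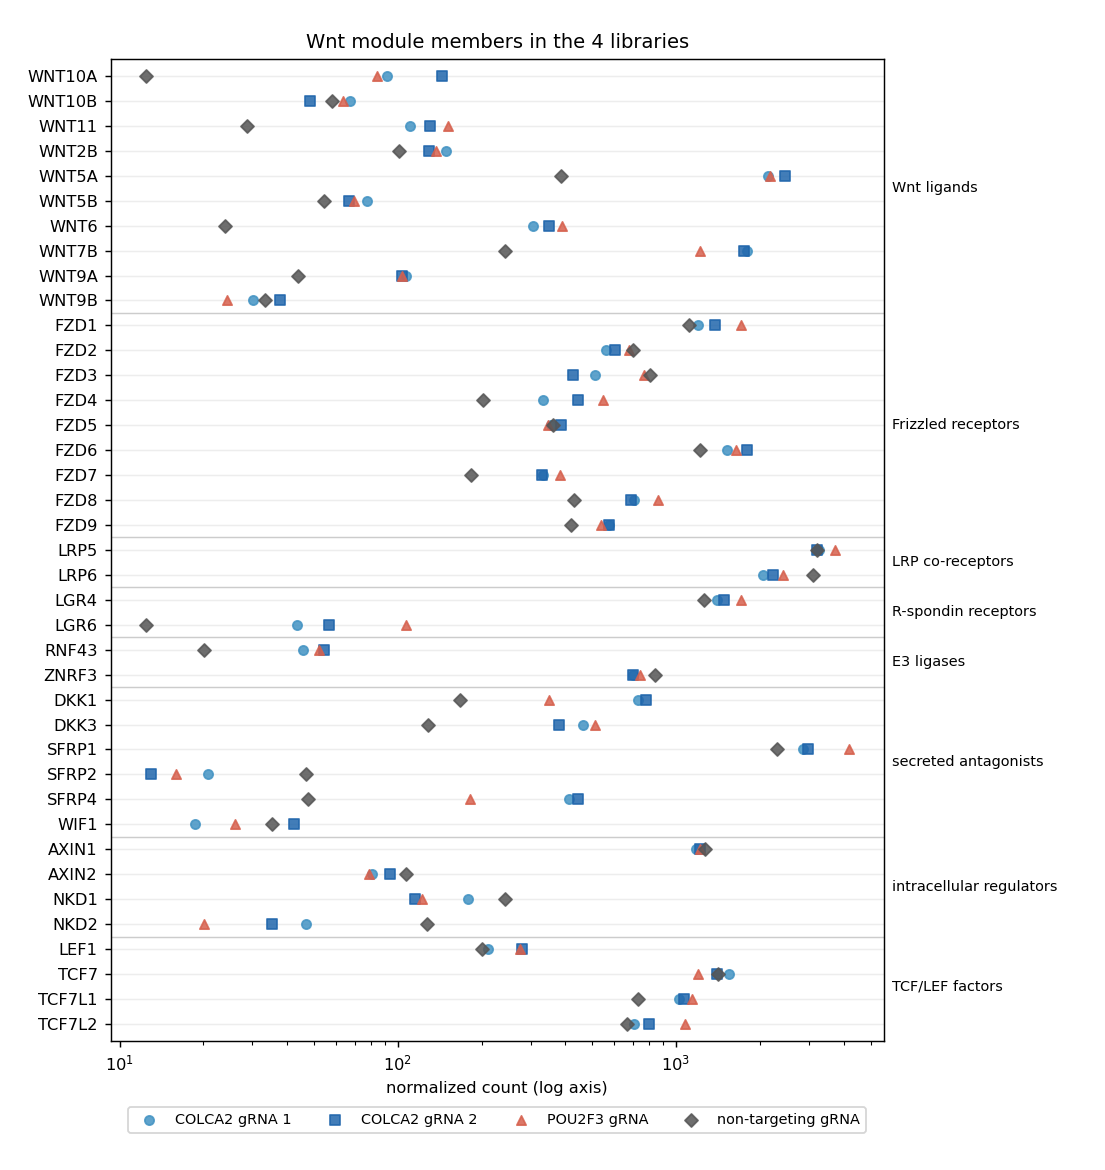
Normalized count (log axis) of each of the 39 Wnt genes past the minimum in the 4 libraries, grouped by role; each symbol is 1 library. The control library (grey diamonds) lies to the left of the other 3 for WNT5A, WNT7B, WNT6, WNT10A and WNT11, and to the right of them for NKD2 and SFRP2.

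Ligands supplied 6 of the 11 genes higher with COLCA2 gRNA and 6 of the 14 higher with POU2F3 gRNA. Of 19 ligand genes, 10 passed the minimum, and 6 of those were higher in both comparisons, WNT5A, WNT7B, WNT6, WNT10A, WNT11 and WNT9A, while 0 were lower. The summed normalized count of all 19 ligands was 1016 in the control library, 4942 for COLCA2 guide 1, 5299 for guide 2 and 4475 with POU2F3 gRNA. These sums were 4.86-, 5.22- and 4.40-fold that of the control library. The median log2 ratio of the 10 ligands was 1.64 with COLCA2 gRNA and 1.77 with POU2F3 gRNA.

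WNT5A (ENSG00000114251, chr3:55465715-55490539 in GRCh38, minus strand), the main ligand of the beta-catenin-independent branch, had a level per kilobase of transcript of 62.3 in the control, next to 61.9 for WNT7B and above every other ligand. It stood at 385 normalized counts in the control library, 2134 for COLCA2 guide 1, 2454 for guide 2 and 2171 with POU2F3 gRNA. The 3 edited libraries lay close together and far above the control. The log2 ratio was 2.57 ± 0.14 (SD, n = 2 guides) with COLCA2 gRNA (edgeR adjusted p = 8.05e-05), and the POU2F3 gRNA library was 5.64-fold higher (95% counting interval 5.08 to 6.28; edgeR adjusted p = 0.000177).

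WNT7B (ENSG00000188064, chr22:45920362-45977129, minus strand), a ligand made by epithelium in the developing lung, stood at 243 in the control library, 1800 and 1761 with the COLCA2 guides and 1218 with POU2F3 gRNA. Its log2 ratio was 2.87 ± 0.02 with COLCA2 gRNA (SD, n = 2; edgeR adjusted p = 4.38e-05) and 2.32 with POU2F3 gRNA (5.02-fold, 95% counting interval 4.39 to 5.76; edgeR adjusted p = 0.000171). Here the POU2F3 library was below both guides, at 0.677 of guide 1 (95% counting interval 0.631 to 0.726) and 0.692 of guide 2 (0.643 to 0.744). That gap is larger than the one between the guides, but the edgeR test of POU2F3 gRNA against COLCA2 gRNA gave an adjusted p of 0.117.

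WNT6 and WNT10A are neighbours on chromosome 2, read in the same direction 6129 bases apart, at chr2:218859821-218874233 and chr2:218880363-218899581. WNT6 (ENSG00000115596) had the largest ratio of the 39 genes in each edited library, from 23.9 normalized counts in the control library (25 reads) to 307, 348 and 390 for COLCA2 guide 1, guide 2 and POU2F3 gRNA. The log2 ratio was 3.72 ± 0.13 (SD, n = 2) for COLCA2 and 3.98 for POU2F3, with edgeR adjusted p-values of 0.000235 and 0.000311. The low control count makes the size of the fold imprecise: 16.4-fold with POU2F3 gRNA has a 95% counting interval of 10.9 to 25.5.

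WNT10A (ENSG00000135925), a ligand of the beta-catenin branch best known from skin appendages and teeth, went from 12.4 (13 reads) in the control library to 91.2, 145 and 83.9 in the same order. Its log2 ratio was 3.11 ± 0.47 with COLCA2 gRNA (SD, n = 2; edgeR adjusted p = 0.00617) and 2.66 with POU2F3 gRNA (6.76-fold, 95% counting interval 3.78 to 13.1; edgeR adjusted p = 0.0197). The guides differed more for this gene than for the other 5 ligands that were higher.

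The promoter of WNT6 is shown because this gene had the largest ratio and because the windows before gene starts were searched for motifs. Sequences are from RefSeq (GRCh38.p14), the 250 bases before each annotated start, which were given for 36 of the 53 genes with 45 starts. The motifs, on both strands, were the octamer ATGCAAAT recognised by POU2 factors, the TCF/LEF motif CTTTGAT, the AP-1 motif TGANTCA and the TEAD motif GGAATG. WNT6 (chr2:218859555-218859804, plus strand) held none of the 4, so its window is all in lower case:
WNT6: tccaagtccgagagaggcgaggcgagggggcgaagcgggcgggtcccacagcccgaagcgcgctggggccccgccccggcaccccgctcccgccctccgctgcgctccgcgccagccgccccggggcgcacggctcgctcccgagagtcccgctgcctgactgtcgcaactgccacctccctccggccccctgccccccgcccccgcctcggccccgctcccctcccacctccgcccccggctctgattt

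This window is 79.2% G and C with 32 CpG dinucleotides, against medians of 58% and 11 over all 35116 windows and of 65.2% and 21 over the 45 of the Wnt genes. The octamer stood in 2 of the 45 windows (4.44%, against 1.63% of all windows), those of LGR4 and SFRP2. TCF/LEF stood in 0, against 2.26%. AP-1 stood in 1 (2.22%, RNF43), against 6.57%, and TEAD in 2 (4.44%, DKK1 and a start of RNF43), against 11.9%. Of the 14 windows of 10 genes that were higher in a comparison, 0 held the octamer or the TCF/LEF motif, 1 held AP-1 (7.14%) and 2 held TEAD (14.3%).

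WNT11 and WNT9A had smaller ratios. WNT11 (ENSG00000085741, chr11:76186325-76210736, minus strand), a ligand known for guiding cell movement, stood at 28.6 in the control library, 111 and 131 with the COLCA2 guides and 152 with POU2F3 gRNA. The 3 edited libraries were all at least 3.87-fold above it, with edgeR adjusted p-values of 0.00877 for COLCA2 and 0.00815 for POU2F3. Its log2 ratio was 2.03 ± 0.17 (SD, n = 2) with COLCA2 gRNA and 2.37 with POU2F3 gRNA, or 5.30-fold (95% counting interval 3.59 to 8.09). WNT9A (ENSG00000143816, chr1:227918656-227947898, minus strand) stood at 43.9, 107, 103 and 103 in the same order. That gave log2 ratios of 1.24 ± 0.03 (SD, n = 2) with COLCA2 gRNA and 1.21 with POU2F3 gRNA. Its edgeR adjusted p was 0.0446 for COLCA2 and 0.0812 for POU2F3, where the 2.35-fold difference has a 95% counting interval of 1.66 to 3.37.

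The remaining 4 ligands past the minimum were not called. WNT2B lay between 101 and 149 normalized counts, WNT5B between 54.4 and 77.8, WNT10B between 48.2 and 67.4 and WNT9B between 24.3 and 37.6 over the 4 libraries. All WNT9B reads were assigned to an identifier off the reference chromosomes.

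The make-up of the ligand RNA also differed between libraries. On a scale per kilobase of the longest transcript, WNT6 made up 5.58% of the ligand total in the control library, against 14.8%, 15.7% and 20.3% for COLCA2 guide 1, guide 2 and POU2F3 gRNA. WNT7B had 24.6%, 37.8%, 34.5% and 27.5% in that order, and WNT5A 24.8%, 28.4%, 30.5% and 31.1%. WNT10B and WNT5B had lower shares in the edited libraries, while their levels were not called: WNT10B from 10.2% to 2.44%, 1.63% and 2.48%, and WNT5B from 9.40% to 2.78%, 2.24% and 2.68%. WNT9A, though called higher, also had lower shares, from 4.4% to 2.21%, 2% and 2.3%. A share falls for any ligand that rises by less than the total.

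**Figure D2:**
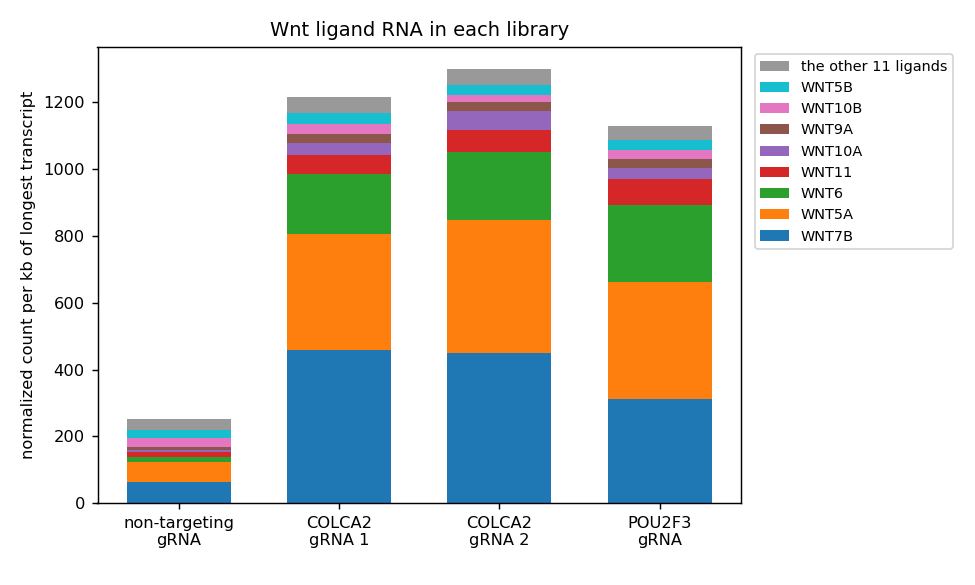
Stacked bars of normalized count per kilobase of longest transcript for the 19 Wnt ligands in each library, 1 bar per library. The totals are 251 in the control library, 1215 and 1301 for the COLCA2 guides and 1129 for POU2F3 gRNA, and WNT7B, WNT5A and WNT6 form most of the 3 taller bars.

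Below the minimum were WNT1, WNT2, WNT3, WNT3A, WNT4, WNT7A, WNT8A, WNT8B and WNT16 among the ligands, with DKK2, DKK4, SFRP5, FZD10 and LGR5. Apart from WNT4 and LGR5 these 12 genes had at most 16 reads in any library. WNT4 had 2 reads in the control library and 30, 16 and 31 in the edited ones, a ratio with POU2F3 gRNA of 13.6 (95% counting interval 3.47 to 118). LGR5, a stem cell marker and R-spondin receptor, had 1 read in the control library against 14, 14 and 17. Its ratio with POU2F3 gRNA was 14.9, with an interval of 2.34 to 625, too wide to give a size, and the gene overlaps TSPAN8 on the opposite strand. WNT4 and LGR5 were singled out after their values had been seen.

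WLS, the carrier that Wnt ligands need to leave the cell, was also higher in both comparisons. It stood at 1229 normalized counts in the control library, 3928 for COLCA2 guide 1, 4325 for guide 2 and 4005 with POU2F3 gRNA. The log2 ratio was 1.75 ± 0.10 (SD, n = 2) and 1.70, with edgeR adjusted p-values of 0.000135 and 0.000279. PORCN, the enzyme that adds the lipid to the ligand, was not called: it lay between 196 and 236 in all 4 libraries.

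Frizzled proteins are the receptors that bind the ligand directly. Of 10 genes, 9 passed the minimum, 0 were called with COLCA2 gRNA and 3, FZD4, FZD7 and FZD8, were higher with POU2F3 gRNA. These 9 had a median log2 ratio of 0.45 with COLCA2 gRNA and 0.44 with POU2F3 gRNA.

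FZD8 lies right at the threshold. It stood at 430 in the control library, 709 and 687 with the COLCA2 guides and 863 with POU2F3 gRNA, which is 2.01-fold with a 95% counting interval of 1.80 to 2.25. FZD7 stood at 183, 333, 330 and 383, and with POU2F3 gRNA was 2.09-fold (1.76 to 2.48). In both genes the control library was below all 3 others; the log2 ratios with COLCA2 gRNA were 0.70 ± 0.03 for FZD8 and 0.85 ± 0.01 for FZD7 (SD, n = 2). edgeR gave adjusted p-values of 0.0129 and 0.0209 with COLCA2 gRNA, and of 0.00581 and 0.0171 with POU2F3 gRNA.

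FZD4, which also serves as the receptor of norrin in blood vessels, stood at 202 in the control library, 333 for COLCA2 guide 1, 443 for guide 2 and 546 with POU2F3 gRNA. The POU2F3 gRNA ratio was 2.70-fold (95% counting interval 2.30 to 3.16), and guide 1 alone missed the threshold, at a log2 ratio of 0.71 against 1.13 for guide 2. FZD4 overlaps PRSS23, a protease gene on the opposite strand. PRSS23 stood at 1581, 11171, 12628 and 13188 in the same order, a log2 ratio of 2.82 or more in every edited library. The use of strand in the counting is not given in the sources used here, and overlap of the exons was not examined. Whether reads of the pair were kept apart is therefore not known.

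Of the other Frizzled genes, FZD3 was below the control with both COLCA2 guides, at 512 and 426 against 806, and near it with POU2F3 gRNA, at 766. Its log2 ratio of -0.79 ± 0.19 (SD, n = 2) did not reach 2-fold but had an edgeR adjusted p of 0.0144. FZD1 went from 1113 to 1198, 1378 and 1719, FZD6 from 1217 to 1521, 1805 and 1647, and FZD9 from 418 to 575, 573 and 540. FZD2 lay between 560 and 703 and FZD5 between 347 and 385. None of these 5 reached 2-fold.

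The co-receptors were not called. LRP5, with the highest level per kilobase in the control (622) of the 52 Wnt genes with a transcript length, which leaves out LRP6, lay between 3207 and 3715 normalized counts. LRP6 was 3100 in the control library and 2053, 2229 and 2430 in the others, a log2 ratio of -0.54 ± 0.08 with COLCA2 gRNA (SD, n = 2; edgeR adjusted p = 0.0116) and -0.35 with POU2F3 gRNA (edgeR adjusted p = 0.110).

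**Figure D3:**
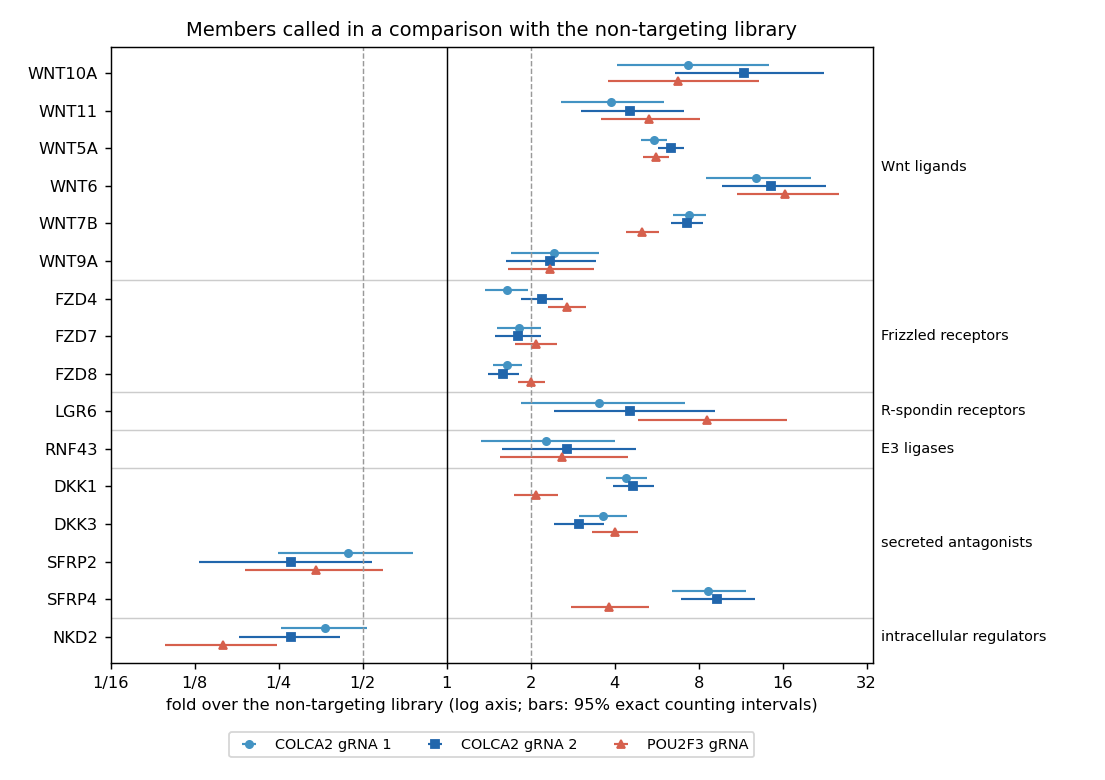
Fold over the control library (log axis) for the 16 Wnt genes called in a comparison with it; symbols are libraries and bars are exact 95% counting intervals, with dashed lines at 2-fold. The 6 ligands lie to the right of the line at 2 in all 3 libraries, FZD4, FZD7 and FZD8 lie about it, and SFRP2 and NKD2 lie to the left of the line at 1/2.

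Among the R-spondin receptors, LGR6 (ENSG00000133067, chr1:202193901-202319781, plus strand) was higher in both comparisons. It stood at 12.4 in the control library (13 reads), 43.5 and 56.5 with the COLCA2 guides and 107 with POU2F3 gRNA. The log2 ratio with COLCA2 gRNA was 1.92 ± 0.26 (SD, n = 2; edgeR adjusted p = 0.0319). The POU2F3 gRNA library was 8.59-fold above the control (95% counting interval 4.85 to 16.6; edgeR adjusted p = 0.0101). It was 2.45-fold above guide 1 (95% counting interval 1.72 to 3.56) and 1.89-fold above guide 2 (1.35 to 2.69), so it passed 2-fold against 1 guide only.

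LGR4 had the highest level per kilobase of the R-spondin receptors, 243 in the control against 3.48 for LGR6. Its normalized count was 1263 in the control library, 1409 and 1484 with the COLCA2 guides and 1715 with POU2F3 gRNA, with log2 ratios of 0.20 ± 0.05 and 0.44. It was not called. The R-spondins themselves were all below the minimum, with a summed count of 13.4 to 16.8 for the 4 genes. The LGR4 promoter is shown because it held an octamer, in capitals, whose first base lies 35 bases before the start; the capitals read as the reverse complement, so the motif is on the opposite strand (chr11:27472791-27473040, minus strand):
LGR4: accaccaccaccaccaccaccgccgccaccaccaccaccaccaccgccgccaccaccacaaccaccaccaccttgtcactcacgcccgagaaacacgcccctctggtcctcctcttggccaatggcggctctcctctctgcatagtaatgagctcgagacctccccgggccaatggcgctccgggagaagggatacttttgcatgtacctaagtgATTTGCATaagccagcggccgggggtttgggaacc

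RNF43 (chr17:58352500-58417595, minus strand) was higher in both comparisons, but from few reads. It stood at 20.1 in the control library, 45.6 and 54.1 with the COLCA2 guides and 52.0 with POU2F3 gRNA. The log2 ratios were 1.27 ± 0.17 (SD, n = 2) and 1.33, and edgeR called neither, at adjusted p-values of 0.0962 and 0.134. With POU2F3 gRNA the fold was 2.60, with a 95% counting interval of 1.56 to 4.48. RNF43 overlaps SUPT4H1 on the same strand, which lay between 1223 and 1627. ZNRF3, its paralog, was not called and lay between 702 and 837.

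The secreted antagonists moved in both directions. Of 9 genes, 6 passed the minimum. DKK1, DKK3 and SFRP4 were higher and SFRP2 lower in both comparisons, while SFRP1 and WIF1 were not called. SFRP1 had by far the highest level per kilobase of the Wnt antagonists in the control library, 513 normalized counts per kilobase against 93.4 for DKK1, the next.

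DKK1 (ENSG00000107984, chr10:52314296-52318042, plus strand), which takes LRP5/6 away from the ligand and is itself a beta-catenin target, stood at 167 in the control library, 733 and 780 with the COLCA2 guides and 350 with POU2F3 gRNA. The guides lay close together and far above the POU2F3 library, which in turn lay above the control. The log2 ratio was 2.17 ± 0.06 with COLCA2 gRNA (SD, n = 2; edgeR adjusted p = 0.000269) and 1.06 with POU2F3 gRNA (edgeR adjusted p = 0.0102). The POU2F3 gRNA fold was 2.09, with a 95% counting interval of 1.75 to 2.51.

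SFRP4 (ENSG00000106483, chr7:37905932-38025695, minus strand), a ligand-binding antagonist, had the same order. It stood at 47.7 in the control library, 413 and 443 with the COLCA2 guides and 182 with POU2F3 gRNA. The log2 ratio was 3.14 ± 0.07 with COLCA2 gRNA (SD, n = 2; edgeR adjusted p = 0.000267) and 1.91 with POU2F3 gRNA (3.82-fold, 95% counting interval 2.79 to 5.30; edgeR adjusted p = 0.00392). SFRP4 overlaps EPDR1 on the opposite strand, which stood at 1128, 1541, 1619 and 1262 in the same order.

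DKK3 (ENSG00000050165, chr11:11963106-12009769, minus strand), a DKK relative that does not bind LRP5/6 as DKK1 does, stood at 128, 464, 381 and 513 in that order. Its log2 ratio was 1.71 ± 0.20 with COLCA2 gRNA (SD, n = 2; edgeR adjusted p = 0.00218) and 1.99 with POU2F3 gRNA (4.01-fold, 95% counting interval 3.32 to 4.87; edgeR adjusted p = 0.00205). Unlike DKK1, its POU2F3 library was above both guides.

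SFRP2 (ENSG00000145423, chr4:153780592-153789120, minus strand) was lower, at 46.8 in the control library against 20.7, 12.9 and 15.9. Its log2 ratio was -1.46 ± 0.45 (SD, n = 2) with COLCA2 gRNA and -1.50 with POU2F3 gRNA. It rests on 49, 20, 11 and 19 reads, and edgeR called neither difference, at adjusted p-values of 0.0883 and 0.151. With POU2F3 gRNA it was 0.341 of the control (95% counting interval 0.190 to 0.590). SFRP1 was 2303 in the control library, 2869 and 2982 with the COLCA2 guides and 4179 with POU2F3 gRNA. It did not reach 2-fold, at log2 ratios of 0.35 ± 0.04 (SD, n = 2) and 0.86, and had edgeR adjusted p-values of 0.0439 and 0.00266. WIF1 was 18.7 for guide 1 and 42.3 for guide 2, on both sides of the 35.3 of the control.

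The promoters of SFRP2 and DKK1 are shown as the antagonists that held a motif. Starts are those of RefSeq, and the GENCODE span of SFRP2, which reaches 153789120, takes in the octamer. SFRP2 (chr4:153789091-153789333, minus strand, without the last 7 bases before the start) has the octamer in capitals, again 35 bases before the start and on the opposite strand, and DKK1 (chr10:52314031-52314280, plus strand) has the TEAD motif in capitals, 50 bases before the start:
SFRP2: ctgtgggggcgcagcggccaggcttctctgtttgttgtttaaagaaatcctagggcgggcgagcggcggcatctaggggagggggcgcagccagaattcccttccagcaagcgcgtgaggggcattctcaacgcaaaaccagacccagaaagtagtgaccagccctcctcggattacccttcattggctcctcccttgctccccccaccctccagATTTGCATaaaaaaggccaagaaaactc
DKK1: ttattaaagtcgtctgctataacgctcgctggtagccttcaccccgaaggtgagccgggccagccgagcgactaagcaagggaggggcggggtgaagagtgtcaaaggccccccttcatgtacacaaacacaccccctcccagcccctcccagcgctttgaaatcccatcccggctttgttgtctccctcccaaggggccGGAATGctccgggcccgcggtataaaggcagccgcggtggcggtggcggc

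Of the intracellular regulators, NKD2 was lower in both comparisons. NKD2 (ENSG00000145506, chr5:1008829-1038943, plus strand), which binds the signalling protein Dishevelled and dampens the pathway, stood at 127 in the control library, 46.7 and 35.3 with the COLCA2 guides and 20.1 with POU2F3 gRNA. The log2 ratio was -1.62 ± 0.28 (SD, n = 2; edgeR adjusted p = 0.0266) with COLCA2 gRNA and -2.60 with POU2F3 gRNA (0.159 of the control, 95% counting interval 0.0982 to 0.246; edgeR adjusted p = 0.0147). Its reads were split over a reference row, with 112 in the control library, and an alternate identifier off the reference chromosomes, with 21.

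NKD1, its paralog, was 243 in the control library and 179, 115 and 123 in the others, so only guide 2 passed 2-fold, at a log2 ratio of -1.07 against -0.43 for guide 1. POU2F3 gRNA fell short of it at -0.98, and edgeR gave adjusted p-values of 0.156 and 0.139. AXIN2, a widely used readout of beta-catenin signalling, was 107 in the control library, 80.9 and 94.1 with the COLCA2 guides and 78.9 with POU2F3 gRNA. It was not called, with edgeR adjusted p-values of 0.574 and 0.527. AXIN1, a scaffold of the complex that destroys beta-catenin, lay between 1178 and 1269.

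None of the TCF/LEF factors, which carry beta-catenin to DNA, was called at 2-fold. LEF1 lay between 201 and 279 and TCF7 between 1198 and 1549. TCF7L1 was 731 in the control library and 1022, 1068 and 1142 in the others, with edgeR adjusted p-values of 0.0253 and 0.0218. TCF7L2 was 667 against 707, 800 and 1079, with edgeR adjusted p-values of 0.412 for COLCA2 and 0.0270 for POU2F3.

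The POU2F3 gRNA library was then set against the COLCA2 guides without the control library. At least 2-fold from both guides, 0 Wnt genes were higher, against 0.442% of all genes, and 2 were lower, DKK1 and SFRP4, against 0.924%. DKK1 was 0.478 of guide 1 (95% counting interval 0.422 to 0.540) and 0.449 of guide 2 (0.396 to 0.508). SFRP4 was 0.441 (0.372 to 0.522) and 0.411 (0.346 to 0.487). All 4 intervals lie below 1, and the guides differed from each other by far less than from the POU2F3 library.

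The edgeR test called 0 Wnt genes in either direction in this comparison, against 0.107% of all genes higher and 0.234% lower. Its adjusted p was 0.050 for DKK1, just above the threshold, and 0.0733 for SFRP4. At an unadjusted edgeR p under 0.05 there were 8 Wnt genes higher and 4 lower, against 6.89% and 6.75% of all genes.

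The COLCA2 guides give the only spread within a group. They were at least 2-fold apart for 1 Wnt gene, WIF1, against 2.22% of all genes. The guides were within 1.5-fold for 35 of 39, and at least 1.5-fold apart for 4, against 7.03% of all genes. The median absolute log2 difference between them was 0.20 for the Wnt genes and 0.13 for all genes.

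**Figure D4:**
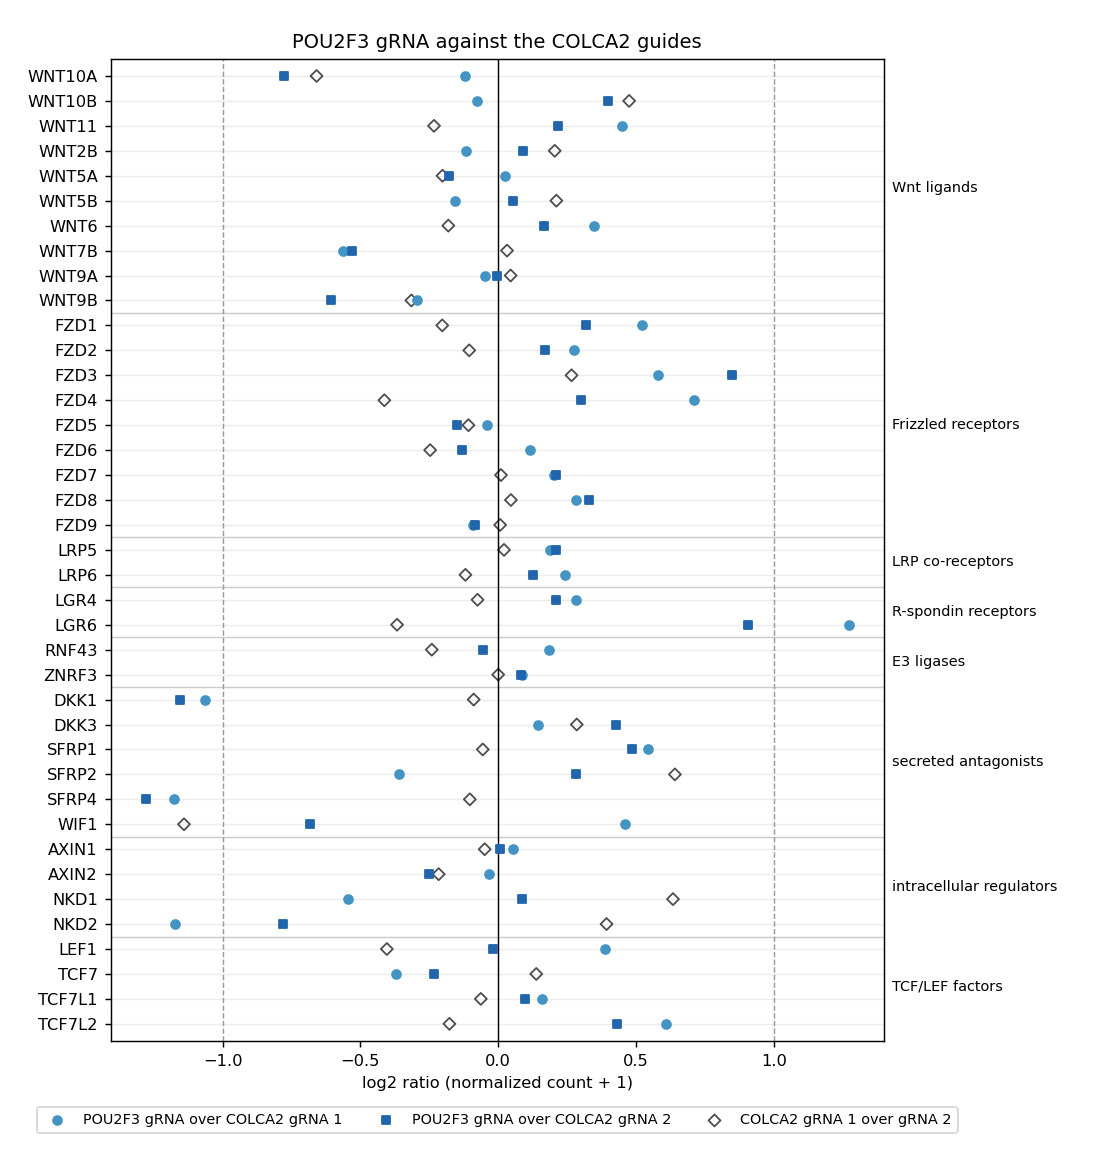
Log2 ratio of the POU2F3 gRNA library to each COLCA2 guide (filled symbols) and of guide 1 to guide 2 (open diamonds) for the 39 Wnt genes, with dashed lines at 2-fold. DKK1 and SFRP4 have both filled symbols beyond the left line, LGR6 and NKD2 have 1 filled symbol beyond a line, and WIF1 has its open diamond beyond the left line.

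The other genes of the pathway were followed in lists chosen by role. Each count is to be read against the shares over all genes, 5.79% higher and 2.02% lower with COLCA2 gRNA and 6.73% higher and 3.05% lower with POU2F3 gRNA. Among the transducers and the destruction complex, 17 of 17 genes passed the minimum and 0 were called in either comparison, CTNNB1 (beta-catenin) among them, a count near that background. In the beta-catenin-independent branch, 3 of 13 genes were higher with COLCA2 gRNA, 2 were higher with POU2F3 gRNA and 0 were lower. ROR1, a receptor of WNT5A, was 67.8 in the control library, 215 and 279 with the COLCA2 guides and 317 with POU2F3 gRNA. PRICKLE1, a cell polarity protein, was 243 against 700, 887 and 1006. The log2 ratios with POU2F3 gRNA were 2.21 for ROR1 and 2.05 for PRICKLE1 (edgeR adjusted p = 0.00408 and 0.00111). CELSR1, a polarity cadherin, was called with COLCA2 gRNA alone, at 1.21 and 1.41 with the guides and 0.66 with POU2F3 gRNA. The POU2F3 gRNA library was less than 2-fold below either guide.

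Genes known as beta-catenin targets were called in both directions, to be read against the same shares. Of 12, 11 passed the minimum, 3 were higher and 1 lower with COLCA2 gRNA, and 2 were higher and 3 lower with POU2F3 gRNA. CD44, an adhesion receptor, was 365 in the control library and 3327, 3509 and 2885 in the others, and the receptor TNFRSF19 was 118 against 450, 515 and 400. PROX1, a transcription factor, was 2383 against 826, 655 and 610. CCND1 (cyclin D1) was called with COLCA2 gRNA, at log2 ratios of 1.02 and 1.03, and had 0.21 with POU2F3 gRNA. ASCL2, an intestinal stem cell factor, and EPHB3, a guidance receptor, were lower with POU2F3 gRNA, at -1.26 and -1.09.

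In the remaining lists few genes were called. BCL9L, a beta-catenin cofactor, was 21.0 in the control library and 478, 232 and 273 in the others. TLE4, a co-repressor of TCF factors, was lower with POU2F3 gRNA (log2 ratio -1.03; edgeR adjusted p = 0.0454). KREMEN1, the DKK co-receptor, was lower in both comparisons, at 9299 against 4535, 4080 and 3095, and was the 1 gene of 7 modulators past the minimum that was called. TRABD2B, a protease that cuts Wnt ligands, was named after its values had been seen: it was called with COLCA2 gRNA, at 52.9 and 77.6 against 11.5, and was 19.3 with POU2F3 gRNA.

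**Figure D5:**
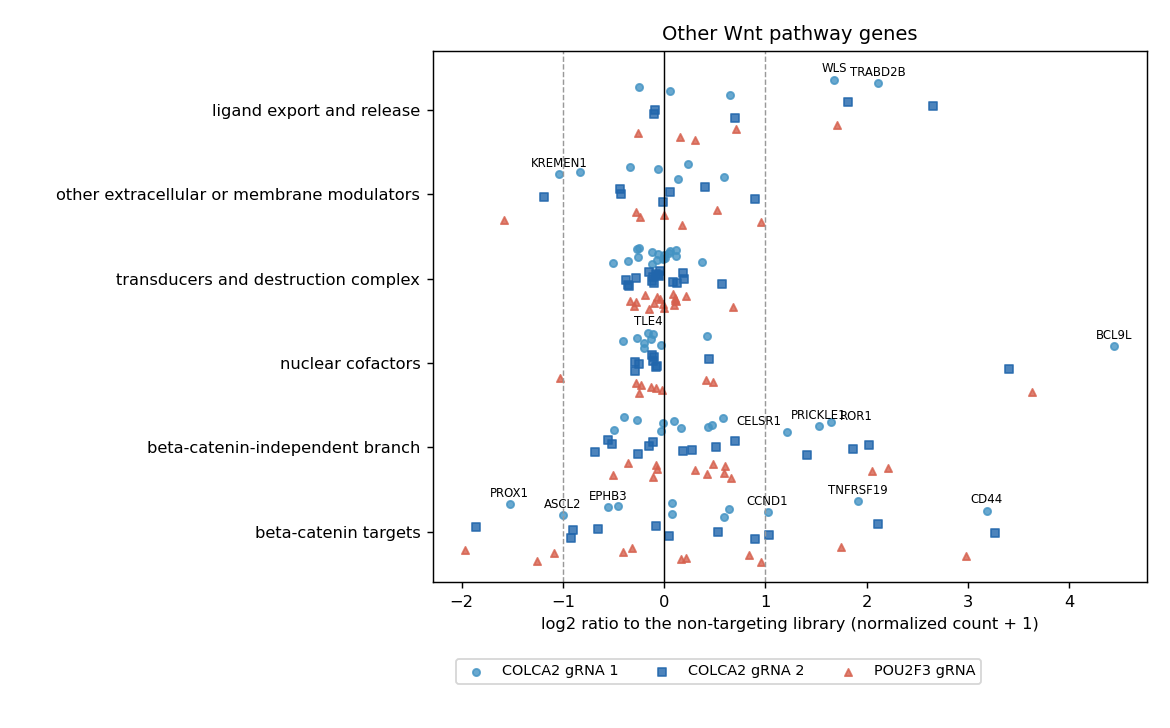
Log2 ratio to the control library of the other Wnt pathway genes past the minimum, by list; circles and squares are the COLCA2 guides, triangles POU2F3 gRNA, and dashed lines mark 2-fold. Called genes are named at their circle; the 17 transducers all lie between the dashed lines, and WLS, ROR1, PRICKLE1, BCL9L, TNFRSF19 and CD44 lie to the right in all 3 libraries.

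Epithelial, fibroblast, immune and endothelial markers were also followed in the same libraries. Over all genes, 5.79% were higher and 2.02% lower with COLCA2 gRNA, and 6.73% higher and 3.05% lower with POU2F3 gRNA. The marker counts are to be read against these shares. Epithelial markers were higher in both comparisons for 3 of 4 genes, KRT8, KRT18 and CDH1. EPCAM was not called and lay below the control, at 3986 against 2945 and 3408 with the COLCA2 guides and 2463 with POU2F3 gRNA. The summed normalized count of the 4 genes was 12082 in the control library and 32801, 37107 and 25820 in the others. Of 7 fibroblast markers, 6 passed the minimum and 3 were higher in both comparisons: COL3A1, LUM and PDGFRB. The summed fibroblast count was 1812 against 3044, 2733 and 2490, and COL1A1 was not called. Immune and endothelial markers were low, with sums of 97.4 to 224 and of 41.5 to 65.9, and CD3E and KDR were at 0 in all 4 libraries. The macrophage-associated marker CD68 was higher with COLCA2 gRNA, at 209 and 200 against 72.6, and was 139 with POU2F3 gRNA. The endothelial marker VWF was lower in both comparisons, at 17.6, 21.2 and 15.9 against 43.9. The part of these changes in the Wnt results was not tested. Bulk RNA cannot tell a change in every cell from a change in the share of cells of a type.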

How the data were processed

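Poly(A) RNA of 4 NCI-H1048 libraries was analysed. TRIzol and chloroform extraction, DNase digestion, NEBNext poly(A) selection and the NEBNext Ultra II RNA kit were used, per the labels' protocols. The submitters' processing notes name Salmon, DESeq2 and hg38, without versions or roles. The authors deposited a linear signal, named as the normalized count of each gene per the file headers. Dividing by the smallest step of a library gave whole numbers for 100% of its values, to within 0.1 read, and these reads were used.

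From these values, rows of the same symbol were summed, genes with a mean of at least 20 were kept, and log2 ratios were taken with a pseudocount of 1 and a 2-fold threshold. No p-value belongs to that rule, since 2 of the 3 groups held 1 library. Intervals are exact 95% binomial intervals of the ratio of reads and hold no spread between libraries. They cover counting error at most, because the labels name no molecular identifiers and reads may repeat a molecule. edgeR 4.0.16 (R 4.3.3; quasi-likelihood test, TMM, Benjamini-Hochberg adjustment over all 14940 genes) was applied to these reads, in 3 groups with 1 residual degree of freedom. Its p-values measure the spread between libraries made with different guides, which the labels do not tie to separate cultures, and for POU2F3 they borrow that spread. The scripts were tested on simulated data.

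Every gene of the set past the minimum is named with its values or range, and of the other pathway genes those called that reached 100 in the higher library. The set and the lists were chosen with earlier results of these data known. Positions are from GENCODE release 29 (GRCh38), matched for 52 of 53 genes; LRP6 did not match. Promoters are from RefSeq (GRCh38.p14).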

Additional observations from a re-analysis of the deposited data

How the results depend on the processing

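No called Wnt gene changed direction under any alternative tried. TMM scaling, a pseudocount of 0.5 and no minimum changed the call of none of the 39 genes in the comparisons with the control library. The median log2 ratio of the set with COLCA2 gRNA was 0.276 when libraries were scaled to equal totals (all genes -0.078) and 0.395 at a minimum mean of 100, and between 0.317 and 0.351 with each guide left out. With POU2F3 gRNA it was 0.406 (all genes -0.038) and 0.541. A pseudocount of 10 left 1 gene lower with COLCA2 gRNA (1.75% of all genes were lower) and 0 apart between the guides (1.37% of all genes were apart). At a minimum of 100, which leaves fewer genes tested, 7 were higher and 0 lower with COLCA2 gRNA. The calls lost there were those of WNT10A, WNT9A, LGR6, RNF43, SFRP2 and NKD2, whose means lay below 100, so they were not tested. The matching shares of all genes are not given here. At the same minimum 0 were lower with POU2F3 gRNA (1.92% of all genes), and 0 were apart between the guides (0.444% of all genes). Without a minimum 8 were apart between the guides, against 19.1% of all genes, and at a 1.5-fold threshold 4 were, against 7.03%. At 1.5-fold 1 gene (LGR6) was higher with POU2F3 gRNA than with both guides, against 1.92% of all genes. At a 4-fold threshold 6 were higher and 0 lower with COLCA2 gRNA, against 2.32% and 0.295% of all genes. With POU2F3 gRNA 6 were higher and 1 lower, against 2.44% and 0.756%. At 4-fold 0 were lower against the guides or apart between them, against 0.181% and 0.442% of all genes. With each COLCA2 guide left out, 0 to 1 were higher with POU2F3 gRNA than with the guide kept, LGR6 being above guide 1. The shares of all genes were 1.37% without guide 1 and 1.53% without guide 2. edgeR called 1 lower with POU2F3 gRNA and 0 lower against the guides. Single calls were lost for FZD8 with POU2F3 gRNA (0.970 with equal totals, 0.989 with a pseudocount of 10), and with a pseudocount of 10 for RNF43 and SFRP2 with COLCA2 gRNA, whose mean log2 ratios were then 0.990 and -1.097. Of the reported calls, edgeR missed RNF43 and SFRP2 in both comparisons and WNT9A with POU2F3 gRNA. Without COLCA2 gRNA 1, FZD4 (1.127) and NKD1 (-1.067) were called for COLCA2. NKD1 was also called with POU2F3 gRNA under equal totals (-1.013). The causes were not tested. No paired analysis was possible because the labels hold nothing that ties libraries of different groups to each other. WNT6, WNT10A, LGR6 and RNF43 had at most 25 reads in the control library, which limits how well the size of their folds is known.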

Other observations

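Several ligand genes lie side by side in the annotation (GENCODE release 29, GRCh38), and neighbours of a called ligand were not always called, as WNT6 and WNT10A both were. WNT9A, higher in both comparisons, lies 59152 bases from WNT3A on the opposite strand, and WNT3A had 8 reads in the control library, 8 and 11 with the COLCA2 guides and 6 with POU2F3 gRNA. WNT10B and WNT1 lie 6689 bases apart on opposite strands; WNT10B was not called and WNT1 was below the minimum. These pairs were looked at after the values had been seen, and no test was made of them.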
